A study of Mus musculus with 14 samples.

Results

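NANOG peaks lay in the promoters of few protein-coding genes in the mouse embryonic stem (ES) cells profiled here. Most of these promoter peaks (74.8%) had no peak of another profiled factor beside them, a share close to the 74.3% of distal NANOG peaks. Of 14815 NANOG ChIP-seq peaks, 433 (2.92%) had their centre from 1000 bp upstream to 300 bp downstream of the start of a protein-coding transcript, and 324 of these had no peak of OCT4, MED1, MED12 or SIM2 within 100 bp. These 324 regions, 2.19% of all NANOG peaks, are the lone promoter peaks described here. They were selected on measured values, namely a called NANOG peak and the lack of a called peak in 6 other lists, so neither property is a result.

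The study mapped SIM2, a basic helix-loop-helix and PAS transcription factor encoded on human chromosome 21, in ES cells that carry a Flag-tagged mouse Sim2 transgene behind the tetracycline-regulated hCMV*-1 promoter (the ROSA-TET system). The transgenic clones A6, B8 and C4 derive from the EB3 line, which lacks the transgene and served as the control for the Flag antibody, and all cells were kept with LIF and serum and moved to medium without tetracycline for 26 h before chromatin was taken. NANOG, OCT4 and the Mediator subunits MED1 and MED12 were analysed in clone A6, with 1 library each, and Flag-SIM2 in A6, B8 and C4, with 1 library per clone. The NANOG peaks therefore come from 1 clone that expressed the transgene, with no replicate, and every interval given below covers the sampling of peaks within this library only. Neighbouring peaks and peaks of the same gene are not independent of each other.

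The lists differed in size. NANOG had 14815 peaks, OCT4 2532, MED12 1071 and MED1 762, while SIM2 had 2387 in clone A6, 2137 in clone B8 and 631 in clone C4. The steps of the NANOG values correspond to a library of 12.9 M tags if the values were scaled to 10 M. A lone peak is one with no other called peak beside it, which these lists cannot tell apart from weaker binding of the other factor, and SOX2 peaks were not analysed here. No peak of the Flag control in EB3 lay within 100 bp of a lone promoter peak (0 of 324, which allows a share of up to 0.926% by the limit of 3 counts and up to 1.17% by the Wilson interval). The same held for all NANOG peaks (0 of 14815), and the control list has only 81 peaks, so this count is not particular to the lone promoter peaks. It is a control for the Flag antibody and does not test the background of the NANOG antibody.

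NANOG is a homeodomain protein that helps to hold ES cells in the pluripotent state. It often binds together with OCT4, which reads the octamer sequence, and SOX2, which reads a short sequence next to it, and most of their joint sites are enhancers, where the Mediator complex links bound factors to RNA polymerase II. Promoters form a different setting, since many lie in CpG islands, GC-rich stretches that keep their CpG dinucleotides and are bound by general promoter factors such as SP1 at GC boxes.

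The DNA under the strongest lone promoter peaks is given as examples. The 5 regions with the highest NANOG tag counts among those that overlapped no annotated exon are printed first, each 167 bases on the strand of its gene in the mm9 assembly. Capitals mark letters that match a NANOG-type core, octamer, SOX-type, ESRRB-type, STAT-type or KLF-type motif as spelled out further on.
Pef1, chr4:129779560-129779726, plus strand: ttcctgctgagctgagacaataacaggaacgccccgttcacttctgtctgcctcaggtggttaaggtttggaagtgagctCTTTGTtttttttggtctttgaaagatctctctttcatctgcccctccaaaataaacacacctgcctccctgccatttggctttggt
Otx2, chr14:49282679-49282845, minus strand: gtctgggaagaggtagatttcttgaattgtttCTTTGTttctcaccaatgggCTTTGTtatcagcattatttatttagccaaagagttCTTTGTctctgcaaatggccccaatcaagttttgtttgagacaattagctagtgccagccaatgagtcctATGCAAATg
Snx10, chr6:51494320-51494486, plus strand: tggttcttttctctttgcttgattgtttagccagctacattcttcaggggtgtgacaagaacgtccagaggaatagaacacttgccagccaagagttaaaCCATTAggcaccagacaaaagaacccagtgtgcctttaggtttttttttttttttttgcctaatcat
N4bp2, chr5:66154087-66154253, plus strand: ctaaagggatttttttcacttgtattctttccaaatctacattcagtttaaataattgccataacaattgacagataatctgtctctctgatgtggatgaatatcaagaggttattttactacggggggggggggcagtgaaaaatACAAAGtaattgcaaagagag
Prickle1, chr15:93350070-93350236, minus strand: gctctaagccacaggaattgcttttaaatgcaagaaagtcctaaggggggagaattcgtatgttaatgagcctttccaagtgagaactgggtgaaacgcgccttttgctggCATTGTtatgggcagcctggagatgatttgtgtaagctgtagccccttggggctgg
A NANOG-type core stands only in the Snx10 region of these 5. The other regions each hold a SOX-type match, and that of Otx2 holds an octamer as well.

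A further pair of regions is shown because each had the highest tag count among the regions free of annotated exons that hold a motif more frequent in the lone promoter peaks than in promoters without NANOG, an ESRRB-type match at Hlf and an ETS-type match at Moap1, in capitals beside the SOX-type letters.
Hlf, chr11:90252971-90253137, minus strand: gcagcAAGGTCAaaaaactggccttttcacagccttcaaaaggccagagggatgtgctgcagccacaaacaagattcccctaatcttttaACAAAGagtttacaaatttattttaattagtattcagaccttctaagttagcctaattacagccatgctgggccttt
Moap1, chr12:103997208-103997374, minus strand: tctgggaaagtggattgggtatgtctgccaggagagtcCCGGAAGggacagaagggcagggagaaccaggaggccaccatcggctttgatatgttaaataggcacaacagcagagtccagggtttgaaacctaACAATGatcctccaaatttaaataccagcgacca
Hlf encodes a basic leucine zipper factor and Moap1 a modulator of apoptosis.

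The strongest lone promoter peak lay 159 bp upstream of Pef1, which encodes a calcium-binding penta-EF-hand protein. Its normalized tag count, as HOMER gives it, was 19.4, and the total of 49 tags set against the input carries an exact Poisson 95% interval from 36.3 to 64.8. The sources used here do not state over which width each of these columns counts tags, and they are not rescaled copies of each other, since the median ratio of the tags implied by the normalized count to the peak score was 0.502. Tag counts are therefore compared only within a column. Otx2, a homeodomain factor of the anterior brain that is also active in early pluripotent cells, followed with 18.6, from 54 tags (interval 40.6 to 70.5) at 215 bp upstream of one of its starts and inside an intron of a longer transcript. The nearest peak of another list lay 7872 bp from it and belonged to SIM2 in clone B8. Snx10 (a sorting nexin), N4bp2 and Prickle1 (planar cell polarity) each stood at 17.8. Tmcc1, a membrane protein gene of the endoplasmic reticulum, had 17.0, BC025920 and Sms (spermine synthase) 16.3 each, and Porcn (the enzyme that attaches the lipid to WNT ligands) and the zinc finger gene Zfp74 15.5 each. Counting error does not separate the highest of these, since the intervals of Pef1, Otx2 and Snx10 (38.0 to 67.1) overlap. Partners were far away for most of the 10, at 87166 bp or more for 8 of them, whereas Prickle1 had an OCT4 peak 1539 bp from its NANOG peak.

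NANOG signal at the lone promoter peaks resembled that at lone peaks elsewhere in the genome. Their median normalized tag count was 5.4 (quartiles 3.9 and 7.0, range 1.5 to 19.4), beside a median of 5.4 (quartiles 4.6 and 7.7) at the 10683 distal NANOG peaks without other factors. Promoter peaks with another factor stood higher, at a median of 9.3 (quartiles 5.4 and 17.0, n = 109). In total tags the medians were 13, 13 and 24. The difference of the log2 total tags was 0 between lone promoter and lone distal peaks (95% interval -0.11 to 0.11) and -0.88 between lone promoter peaks and promoter peaks with another factor (-1.24 to -0.53). The latter difference is a description, since the lack of called neighbours chose the lone peaks.

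**Figure D1:**
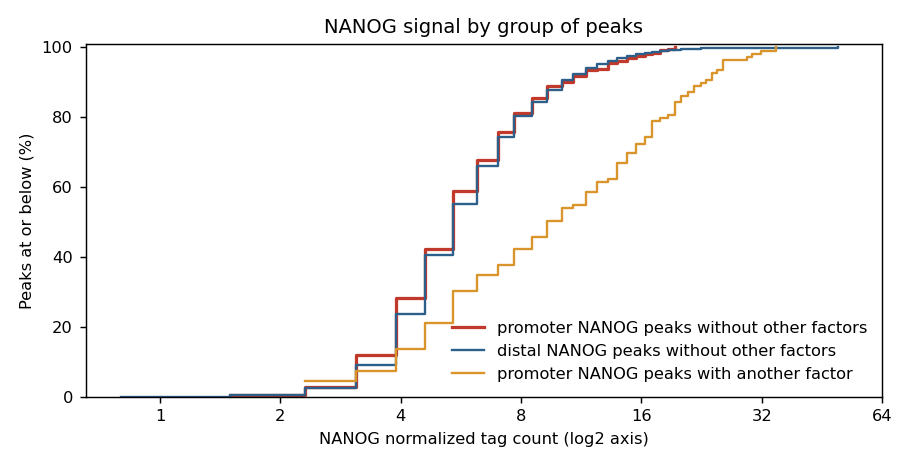
Share of peaks (y axis, %) at or below each NANOG normalized tag count (x axis, log2 scale) for the 324 lone promoter peaks, the 10683 lone distal peaks and the 109 promoter peaks with another factor in the clone A6 library. The curves of the lone groups run together with medians of 5.4, while the promoter peaks with another factor lie to the right with a median of 9.3.

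Other readouts of the peak caller gave the same picture. The median enrichment over input was 5.99-fold in both lone groups and 10.3-fold in the promoter peaks with another factor. Of the lone promoter peaks 23.8% reached 8-fold over input, beside 25.4% of the lone distal peaks (difference -1.64 percentage points, 95% Newcombe interval -6.03 to 3.35) and 58.7% of the promoter peaks with another factor. Input tags stood at the lowest value in the file, 2.2, in 95.1% of the lone promoter peaks and 94.5% of the lone distal peaks, so the fold is close to a rescaled tag count for nearly all of them. The focus ratio, the fraction of tags on the side of the centre where a point source puts them, had medians of 0.771 and 0.765 (difference 0.006, Price-Bonett 95% interval -0.0069 to 0.0189).

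Taken over all tag counts, the rate of lone peaks hardly differed between promoters and the rest of the genome. Of promoter NANOG peaks 74.8% were lone, and of distal peaks 74.3% (difference 0.546 points, 95% interval -3.81 to 4.47). That share went down with NANOG signal in both settings, at promoters from 86.0% of peaks with a tag count up to 3.9 to 23.3% of peaks from 15.5 upwards, and at distal sites from 93.1% to 18.1%. Within 9 groups of similar tag count, cut at the deciles, the common difference was -1.12 points (-4.72 to 2.49), but its sign was not the same throughout. Promoter peaks were less often lone in each group up to a tag count of 6.2, such as 84.4% against 89.0% at 5.4. They were more often lone in each group from 7.0 upwards, such as 89.7% against 81.1% at 7.0. The single groups were not tested. These shares describe the rule's own values. The partners that took promoter peaks out of the lone group were OCT4 at 13.9% of the 433, SIM2 at 11.8% (A6), 8.31% (B8) and 0.924% (C4), MED12 at 7.39% and MED1 at 5.77%, beside 16.2%, 12.2%, 10.1%, 2.63%, 6.11% and 2.70% at distal peaks in the same order.

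Lone NANOG peaks were denser in promoters than outside them, and their count was highest in the 500 bp upstream of the start. The promoter windows covered 1.51% of the chromosomes and held 8.14 lone peaks per Mb, against 4.11 per Mb elsewhere, a ratio of 1.98. The same ratio for NANOG peaks with another factor was 1.92. Full chromosome lengths were used, with assembly gaps and unmappable sequence counted in. Counted from the nearest protein-coding start, 179 lone peaks had their centre in the 500 bp upstream and 50 in the 500 bp downstream, whereas bins of that width 2 to 5 kb away held 68.0 on average. The step at the start was present in the peaks with another factor too, with 59 upstream, 16 downstream and 26.2 on average 2 to 5 kb away. These bins hold counts of peaks, not divided by the amount of sequence whose nearest start lies at that distance.

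**Figure D2:**
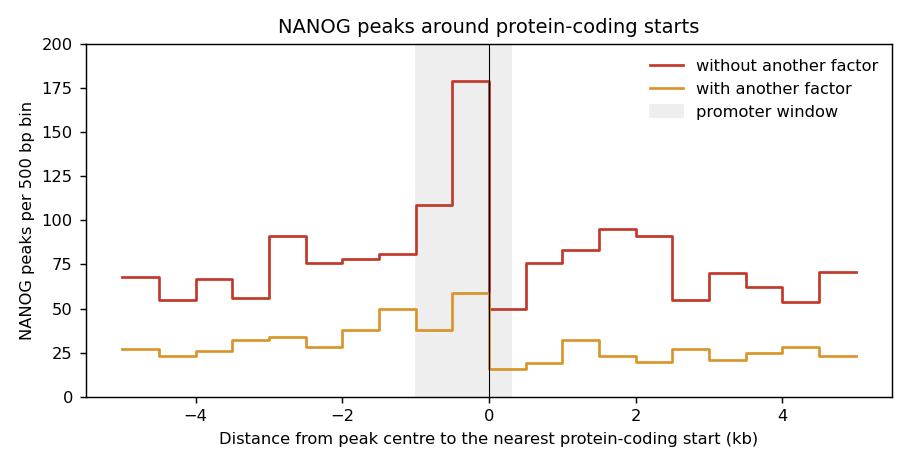
NANOG peaks per 500 bp bin (y axis) by distance of the peak centre from the nearest protein-coding start (x axis, kb, negative upstream), for peaks without and with another factor, with the promoter window shaded. Lone peaks reach 179 in the bin upstream of the start and drop to 50 in the bin downstream of it.

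Within the window the lone promoter peaks had a median distance of -310 bp, and 292 of 324 (90.1%) lay upstream of their start. The window itself reaches 1000 bp upstream and only 300 bp downstream, so a majority upstream is partly set by its shape. The bin from 200 to 100 bp upstream held 62 peaks, the most of any 100 bp bin, and 127 peaks (39.2%) lay within 300 bp upstream. By annotation 193 centres were outside every transcript, 85 in an intron of a protein-coding transcript, 17 in a transcript not annotated as protein-coding, 24 in a UTR exon and 5 in a coding exon, and 255 peak intervals overlapped no exon at all. Of the starts, 247 (76.2%) were the outermost annotated start of their gene, and the rest were internal starts such as that of Otx2.

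The position differed with the kind of start. A start was called a CpG island where 500 bp around it had more than 55% GC and an observed to expected CpG ratio above 0.6. This comparison was chosen after the values were seen. At the 119 island starts the median distance was -562 bp and 27 peaks (22.7%) lay within 300 bp upstream, and at the 205 other starts it was -186 bp with 100 peaks (48.8%) in that range. The medians differed by -376 bp (Price-Bonett 95% interval -492 to -260) and the shares by -26.1 points (-35.6 to -15.4). Promoter NANOG peaks with another factor showed a similar shift, -370 bp (-536 to -204), with 3.45% and 47.5% within 300 bp upstream. NANOG tag counts did not go with it, since the median was 5.4 at both kinds of start.

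**Figure D3:**
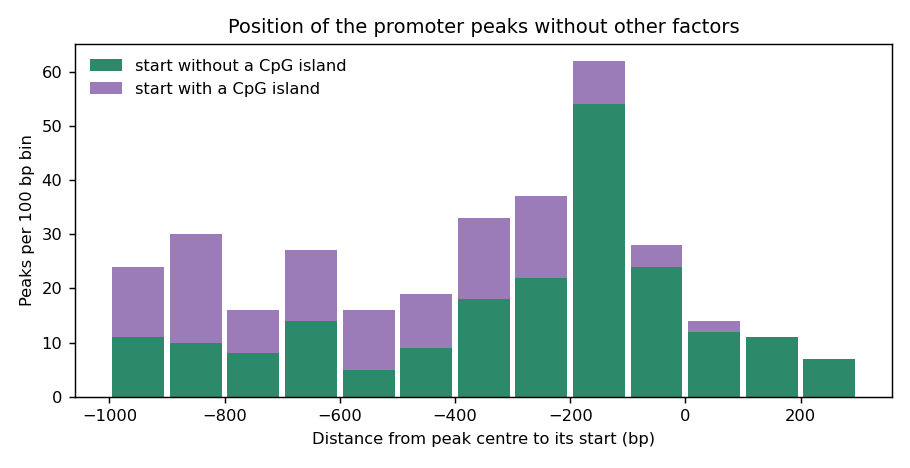
Number of lone promoter NANOG peaks (y axis, stacked, per 100 bp bin) by distance of the centre from its start (x axis, bp, negative upstream), split by whether the start lies in a CpG island. The 205 peaks at other starts pile up from 200 to 100 bp upstream, while the 119 at island starts spread over the upstream part of the window.

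Lone promoter peaks rarely lay inside a CpG island, although many of their starts were islands. Of the 500 bp windows around the peak centres 2.47% (8 of 324) met the island criterion, against 17.9% of windows at the same median distance from the starts of 21917 genes without a promoter NANOG peak (difference -15.5 points, 95% interval -16.8 to -13.1) and 21.3% when those genes took the peaks' own distances in turn (-18.8, -20.1 to -16.4). Lone distal peaks met it in 0.0655% and promoter peaks with another factor in 0.917%. Among island starts alone, 5.88% of the lone promoter windows were islands beside 13.7% in genes without NANOG (-7.81 points). The starts themselves were islands in 36.7% of cases against 45.0% (-8.26 points, -13.4 to -2.85), but at the 247 outermost starts alone the share was 46.6% (1.57 points, -4.59 to 7.83). Genes without NANOG were placed by their outermost annotated start, while lone peaks took the nearest start, internal starts included. The window shares here and the CpG ratios below are not given for outermost starts alone, so they mix both differences.

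The CpG content of the windows fell between that of distal NANOG sites and that of other promoters. The median observed to expected CpG ratio was 0.335 in the lone promoter peaks, 0.165 in the lone distal peaks (difference 0.169) and 0.371 in promoters without NANOG (difference -0.0367, -0.0705 to -0.0029). The last gap did not hold when the promoters took the peaks' own distances (0.0039, -0.0297 to 0.0375) or when both windows were centred on the start (0.0346, -0.0322 to 0.102). Median GC content was 45.9%, 43.3% and 49.3% in the same order. Divergent starts, with a protein-coding start on the opposite strand within 1000 bp upstream, made up 5.56% of the lone promoter peaks' starts and 8.65% of all protein-coding genes (-3.09 points, -5.14 to -0.0185), and this gap reached 0 at the outermost starts alone (-3.39, -5.58 to 0.164).

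**Figure D4:**
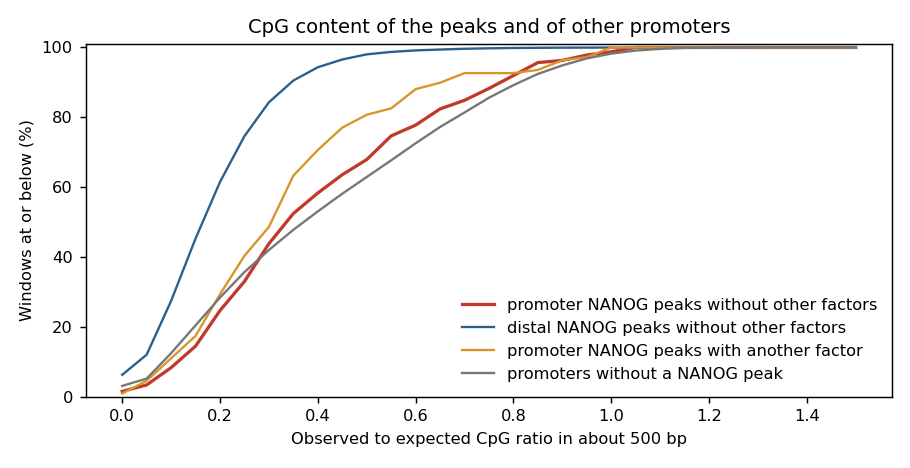
Share of windows (y axis, %) at or below each observed to expected CpG ratio (x axis) in about 500 bp, for lone promoter, lone distal and partnered promoter NANOG peaks and for promoters without a NANOG peak at the median distance. The median is 0.335 at the lone promoter peaks, between 0.165 at the lone distal peaks and 0.371 at other promoters.

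Motifs were searched as exact letters on both strands in the 167 bp of each window. They were the NANOG-type core CCATTA, an extended form GCCATTA that contains it, the octamer ATGCAAAT, the SOX-type forms ACAAAG and ACAATG, an ESRRB-type AAGGTCA, a STAT-type TTCCNGGAA, a KLF-type GGGNGTGG, the GC box GGGCGG, the CCAAT box CCAAT, a YY1-type AANATGGC, an NRF1-type GCGCATGC, an ETS-type CCGGAAG, the CRE core TGACGT, the E-box CACGTG, a ZFX-type AGGCCT, a ZFP143 and THAP11-type ACAATTCCC, a ZBTB33-type CTCGCGAG and a TATA-type TATAAA. Each of these 19 was compared with 3 groups, and the intervals were widened to cover all 57 comparisons at 95%. Intervals for the peaks' own distances and for windows outside CpG islands have the same level but are not among the 57. A match is a description of the letters and not a bound site. Promoters without NANOG were placed by the outermost start of each gene, while some lone peaks belong to internal starts. Motif differences from these promoters therefore mix the kind of start with the presence of NANOG, and are not given for outermost starts alone.

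The octamer, both SOX-type forms and the ESRRB-type sequence were more frequent in the lone promoter peaks than in promoters without NANOG. Against lone distal NANOG peaks the interval of each of these differences included 0. ACAAAG, a SOX-type sequence, stood in 28.4% of the lone promoter peaks against 12.7% of promoters without NANOG (difference 15.7 points, interval 8.19 to 24.7) and 28.8% of lone distal peaks (-0.45, -8.11 to 8.60). ACAATG stood in 13.6% against 6.86% of promoters (6.72, 1.55 to 14.3). The octamer stood in 3.40% against 0.757% (2.64, 0.532 to 7.81), and the ESRRB-type sequence, named for an orphan nuclear receptor of the ES cell network, in 7.72% against 3.08% (4.63, 0.958 to 11.1). Each of these 4 differences also lay above 0 when the promoters took the peaks' own distances, and there the STAT-type sequence did so too, at 1.85% against 0.452% (1.40, 0.0575 to 5.91). The octamer was found in 11.9% of promoter peaks with another factor, a group that includes the OCT4 peaks, but the difference from the lone peaks reached 0 (-8.53, -22.6 to 0.123). The NANOG-type core itself was no more frequent than in other windows beyond its interval, at 6.79% against 4.97% of promoters (1.82, -1.58 to 8.06) and 10.4% of lone distal peaks (-3.63, -7.14 to 2.66). Against promoters the extended form (0.73, -0.63 to 5.25) and the KLF-type sequence (3.32, -1.14 to 10.4) did not pass either.

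Of the 19 motifs, 2 differed between lone promoter and lone distal peaks, the GC box and the ETS-type sequence. The GC box was present in 6.17% against 2.31% of lone distal peaks (3.86 points, 0.656 to 9.93) and the ETS-type sequence in 4.32% against 1.35% (2.97, 0.454 to 8.48). Other promoter-type sequences had intervals that included 0 there, among them the CCAAT box (4.68, -2.74 to 13.6) and the TATA-type sequence (-2.14, -6.37 to 4.71). Against promoters without NANOG the GC box was less frequent, 6.17% and 12.2%, with an interval that just reached 0 (-6.06, -9.31 to 0.0385). With the peaks' own distances that gap was -10.002 (-13.3 to -3.89), and in windows outside CpG islands it was -0.297 (-3.27 to 5.66). The ETS-type difference from promoters, 4.32% against 1.79% (2.53, 0.0286 to 8.04), was 1.57 (-0.939 to 7.09) with the peaks' own distances. In windows outside CpG islands it was 3.07 (0.635 to 8.60), from 4.11% against 1.05%. In all 7 of the 57 differences lay past 0, of which 5 were against promoters without NANOG, 2 against lone distal peaks and 0 against promoter peaks with another factor, where the 109 windows give wide intervals.

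**Figure D5:**
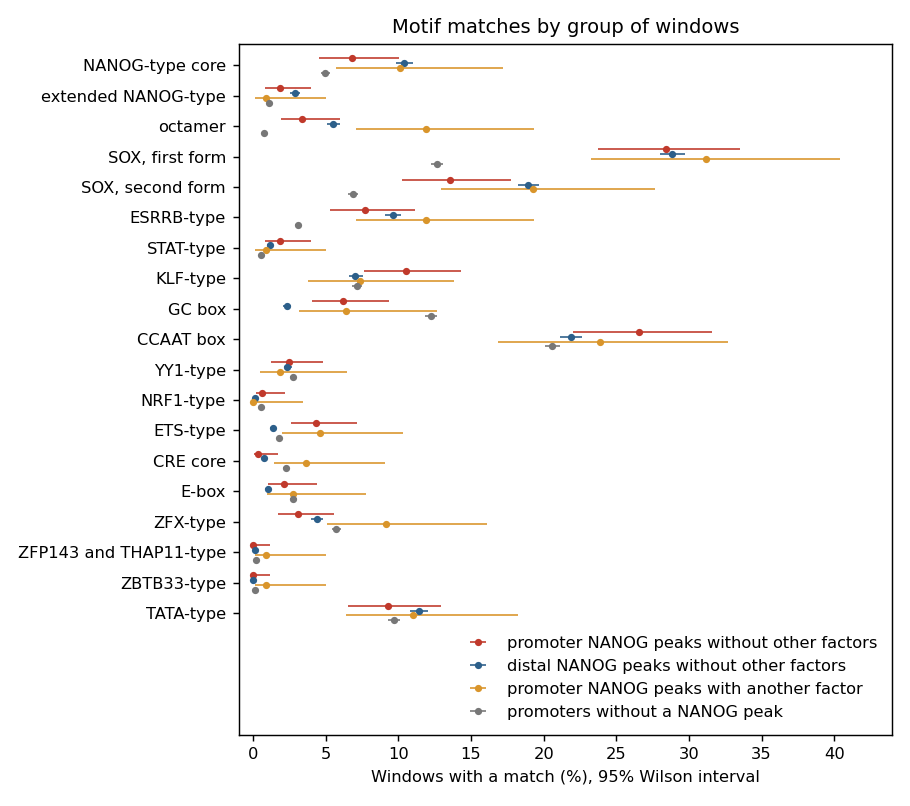
Share of 167 bp windows with a match (x axis, %, with 95% Wilson intervals for each share) for 19 motifs (y axis) in lone promoter, lone distal and partnered promoter NANOG peaks and in promoters without a NANOG peak. The first SOX form is ACAAAG and the second ACAATG, and their shares in every NANOG group stand above those in promoters without NANOG, at 28.4% and 12.7% for the first form in lone promoter peaks and promoters.

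Lone at 100 bp did not mean isolated at longer range. Of the 324 lone promoter peaks 40 (12.3%) had a peak of one of the other lists within 10 kb, as did 12.8% of lone distal peaks (difference -0.441 points, 95% interval -3.65 to 3.64) and 5.22% of promoters without NANOG (7.13, 3.97 to 11.2). Within 100 kb the shares were 52.2%, 47.0% and 34.1%. By list, SIM2 in A6 came within 10 kb of 20 lone promoter peaks, OCT4 of 18, SIM2 in B8 of 15, MED12 of 12, MED1 of 9 and SIM2 in C4 of 2. A further NANOG peak lay within 10 kb of 26.9%, beside 29.7% of lone distal peaks (-2.86, -7.48 to 2.29).

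The 324 peaks fell in the promoter windows of 334 of 22359 protein-coding genes (1.49%), and 442 genes (1.98%) had any promoter NANOG peak. Because 13 peaks lay in the windows of more than 1 gene, a peak cannot be given to a single gene there. Runx1t1, Zscan10, Nhsl1, Tpd52 and Dppa4 had 2 lone promoter peaks each. Those of Zscan10, Nhsl1 and Dppa4 were 352, 393 and 450 bp apart. Runx1t1, Tpd52 and Zscan10 had theirs at separate starts.

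Pluripotency genes were the list with the largest share of lone promoter peaks among the 19 lists examined. Of 40 such genes 5 (12.5%) had a lone peak and 10 any promoter NANOG peak, beside 1.49% and 1.98% of all genes. Pou5f1, which encodes OCT4, had a lone peak at chr17:35641977-35642143, outside any transcript and 922 bp upstream, with a tag count of 13.2 (35 tags, interval 24.4 to 48.7), and the nearest other peak, SIM2 in A6, lay 1034 bp away. Dppa2 and Dppa4 are neighbours on chromosome 16 whose products bind chromatin in early embryonic cells. Dppa2 carried a peak 160 bp upstream with a tag count of 8.5, and Dppa4 had its pair at 211 and 661 bp upstream with 7.0 and 3.1. Zscan10, a zinc finger factor of ES cells, had 8.5 at 235 bp downstream of a start and 5.4 at 32 bp upstream of a different start. Prdm14, a repressor that guards the naive state, had 4.6 at 945 bp upstream. Tbx3, Nr5a2, Dppa5a, Rif1 and Fbxo15 had promoter NANOG peaks with another factor.

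Signalling lists followed. Of 30 genes of the WNT pathway and its TCF factors 3 had a lone peak, namely the kinase Gsk3a (tag count 3.9, 408 bp upstream), the receptor Fzd2 (3.1, 696 bp upstream) and the corepressor Tle3. Of 31 FGF-ERK genes 3 (9.68%) had one, the receptor Fgfr1 (5.4, 92 bp upstream), the pathway inhibitor Spry4 and the ETS factor Etv5 (3.9, 171 bp downstream). The peaks of Tle3 (2.3) and Spry4 (6.2) lay closer to the start of a neighbouring gene, and so did that of the Mediator subunit Med19 (4.6), which was the 1 hit among 32 Mediator genes. None of the 18 LIF-STAT3, 18 Nodal or 19 BMP and Id genes had a lone peak, but these lists are too small to set that apart from the background of 1.49%.

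Lists of chromatin genes and of general cell functions held at most 2 genes with a lone peak each. Of 30 enzymes of histone H3 lysine 4 and 27 and related modifiers 2 (6.67%) had a lone peak, Kdm3a (9.3, 286 bp upstream) and Kdm4a (3.9, 563 bp upstream), and both are known for removing methyl groups from lysine 9. Single genes were hit among 38 remodelling subunits (Actl6a, 5.4), 78 cytosolic ribosomal proteins (Rps21, 7.7), 33 replication proteins (Rpa2, 6.2) and 68 lineage transcription factors (Otx2). The shares were 2.63%, 1.28%, 3.03% and 1.47% in that order. In all 18 of 634 listed genes had a lone peak, and 10 of the 19 lists, with 257 genes, had none. Among the lists with none were Polycomb complexes, DNA methylation enzymes and readers, cell cycle regulators and complex I of the respiratory chain. Each of these counts stands beside the background of 1.49%, and no list was tested. At that background, lists of this size hold few such genes or none, so the empty lists show no depletion.

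The peaks nearest to the edges of the rule are given for both sides, too few for a comparison. The outermost peaks inside the window were those of Lipm (-999 bp, tag count 3.9) and Zwint (-994 bp, 5.4), and the nearest outside were those of Scmh1 (-1007 bp, 7.7) and Racgap1 (-1014 bp, 3.1). Downstream, Ank2 (243 bp, 4.6) and Phf21a (236 bp, 7.0) were inside and Pkia (353 bp, 7.0) and Gm17650 (356 bp, 6.2) outside. The smallest gaps to another factor among the lone peaks were 123 bp at Gtpbp5 (tag count 4.6) and 149 bp at Mras (6.2). The largest gaps among those left out were 61 bp at Hsd17b11 (tag count 7.7) and 4 bp at Pax6 (17.0), both with higher counts. A list threshold also bounds the NANOG peaks themselves. Taken separately, the lowest total among the lone promoter peaks was 10 tags and the lowest enrichment over input was 4.04-fold.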

How the data were processed

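Chromatin of mouse ES cells was profiled by ChIP-seq with antibodies to NANOG, OCT4, MED1, MED12 and Flag, after enzymatic digestion of the chromatin per the labels. Per the study's methods, the authors aligned the reads with BWA on the mm9 assembly, discarded duplicates and used HOMER to call each library's peaks over input. The versions of both tools are not given in the sources used here. The deposited peak lists hold, per peak, a normalized tag count and total and input tags (signal), a focus ratio (fraction), a peak score, fold ratios over input and local background, and the p-value of the peak caller, which was not used. Replicates were not pooled.

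Starts came from GENCODE vM1 on the same assembly (46015 starts of 22359 protein-coding genes). Peak intervals were matched within 100 bp, as tested on simulated data against bedtools 2.31.1 (3000 of 3000 calls equal). Shares were compared by Newcombe intervals and medians by Price-Bonett intervals, on log2 values for tags and fold, with Python 3.11.15, numpy 2.4.6, scipy 1.17.1 and pysam 0.24.0. No p-value was computed, because each factor has 1 library and peaks are not replicates. Counting intervals cover counting error only. Named genes were the 10 strongest lone promoter peaks, up to 4 genes per list, and genes with 2 or more peaks. The regions, the gene lists and the motifs were chosen with earlier results of these data known. Of the pluripotency list 2 symbols, and of the lineage factor list and the polymerase list 1 each, did not match the annotation. Alternatives changed the enrichment threshold, the distance, the promoter window, the annotation, the sequence window and the SIM2 lists used.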

Additional observations from a re-analysis of the deposited data

How the results depend on the processing

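The number of lone promoter peaks was 117 when every list was held to 8-fold over input and 77 when only NANOG was, and 324 to 335 when 1 SIM2 clone was left out. The lone share of promoter minus distal peaks, 0.546 points, became -2.05 with every list at 8-fold, -3.37 with the starts of all genes, -1.12 within groups cut at the deciles of NANOG tag count and 5.89 with NANOG alone at 8-fold (0.479 to 0.935 without 1 SIM2 clone), each with an interval that includes 0. The value within groups joins weak and strong groups whose differences had opposite signs. The focus ratio difference had an interval above 0 at 8-fold for all lists (0.032) or for NANOG (0.037) and in a window of 500 bp on either side (0.023), and was 0.006 to 0.009 without 1 clone. The CpG ratio difference from promoters was -0.131 in the 500 bp window, -0.0918 with NANOG at 8-fold, -0.0882 in sequence windows of 1000 bp, -0.031 with other peaks excluded within 1000 bp, where its interval reached 0, 0.0128 with the starts of all genes, 0.0346 with start-centred windows and 0.0039 at the peaks' own distances, and -0.0367 to -0.0332 without 1 clone. The NANOG-type core difference from distal peaks was 1.19 and 0.202 points at 8-fold for all lists and for NANOG, and -3.84 to -3.49 without 1 clone. The GC box difference from promoters was -16.9 points in the 500 bp window and -10.002 at the peaks' own distances, and -6.17 to -5.91 without 1 clone, below 0 without clone B8. The divergent start difference reached 0 with NANOG at 8-fold (-6.05), matching of centres (-2.93), a 1000 bp exclusion (-2.88), the 500 bp window (-2.54) and all genes (-2.51), and was -3.28 to -2.94 without 1 clone, reaching 0 without clone B8 (-2.94). The median log2 tag count difference from lone distal peaks was 0 except with every list at 8-fold (0.10, -0.06 to 0.25). Its interval has no width in most settings because tag counts come in steps, so it says nothing of precision. The causes were not tested. The start-centred windows, the windows outside CpG islands and the use of the peaks' own distances were chosen after seeing the data. No paired analysis was possible because each factor has 1 library and no comparison is between replicated groups. The listed lone peaks start at 10 tags and 4.04-fold over input, so binding below these values could not be examined.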

Other observations

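Lone promoter NANOG peaks were also counted in gene families by the start of the symbol, chosen after their values were seen. Zinc finger genes named Zfp had one in 12 of 370 genes (3.24%), and the Hist1h histone genes in 3 of 55 (5.45%), beside 1.49% of all protein-coding genes. The Hist1h peaks were those of Hist1h2bb (tag count 7.7), Hist1h3d (4.6) and Hist1h2ae (3.9), and near-identical copies make the mapping of reads in this cluster uncertain. Olfactory receptor genes (Olfr) had 1 in 1113, vomeronasal receptor genes (Vmn) 1 in 327, and Hox genes 0 in 39. The Hox and Hist1h families are too small to set their counts apart from 1.49%. None of these counts was tested.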
